A study of Homo sapiens with 4 samples.

Results

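The genes described here encode the pre-B cell receptor and the signalling proteins that lie next to it. They are the surrogate light chain genes VPREB1 and IGLL1 with their relative VPREB3, the signalling chains CD79A and CD79B, the kinases SYK, BTK, LYN and BLK, and the adaptor BLNK. They were chosen by symbol, as all probe sets that the array's annotation assigns to 1 of these 10 genes, which gave 14 probe sets of the 22277 on the array. RNA was measured in BV-173 and SUP-B15, human cell lines that the labels describe as Philadelphia chromosome-positive acute lymphoblastic leukemia and that therefore carry the BCR-ABL1 fusion kinase. The 4 groups were SUP-B15 exposed to STI571, the kinase inhibitor imatinib, at 10 μmol/l over 16 h, untreated SUP-B15, BV-173 treated in the same way, and untreated BV-173, with 1 array each. Each line is a single established leukemia, and nothing in the labels says that the arrays of a line came from separate cultures. The p-values therefore reach no further than these arrays. They rest on the spread of all genes of similar brightness, not on a gene's own spread.

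The pre-B cell receptor is displayed by B cell precursors that have assembled an immunoglobulin heavy chain but no light chain. VPREB1 and IGLL1, also called λ5, stand in for the missing light chain, and CD79A and CD79B carry the signal across the membrane through tyrosine motifs in their tails. SRC family kinases such as LYN and BLK phosphorylate these motifs, SYK docks on them and is activated, and SYK phosphorylates BLNK, a scaffold on which BTK and phospholipase C-gamma 2 meet. In normal development this signal selects cells with a working heavy chain, and in B precursor leukemia it may be present or silent.

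The transcription factors TCF3, EBF1 and Ikaros are known regulators of the surrogate light chain and CD79 genes, so the upstream sequences of 5 genes are shown, to let these letters be read beside which genes were called. RefSeq promoter windows on GRCh38.p14 were given for 7 of the 10 genes. Those of VPREB1 (chr22:22244536-22244785, plus strand), IGLL1 (chr22:23580291-23580540, minus strand), VPREB3 (chr22:23754426-23754675, minus strand), CD79A (chr19:41877029-41877278, plus strand) and BLNK (chr10:96271570-96271819, minus strand) are each printed as the 250 bases before the annotated start, 5′ to 3′ on the gene's strand. Capitals mark matches to CAGGTG, a TCF3-type E-box, to CCCNNGGG, the inner bases of an EBF1 site, and to TGGGAA, the core of an Ikaros site, each searched on both strands.
VPREB1: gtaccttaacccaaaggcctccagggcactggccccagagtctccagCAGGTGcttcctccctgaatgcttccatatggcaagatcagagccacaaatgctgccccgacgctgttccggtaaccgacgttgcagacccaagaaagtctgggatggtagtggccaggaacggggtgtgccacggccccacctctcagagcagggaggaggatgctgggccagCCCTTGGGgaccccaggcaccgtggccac
IGLL1: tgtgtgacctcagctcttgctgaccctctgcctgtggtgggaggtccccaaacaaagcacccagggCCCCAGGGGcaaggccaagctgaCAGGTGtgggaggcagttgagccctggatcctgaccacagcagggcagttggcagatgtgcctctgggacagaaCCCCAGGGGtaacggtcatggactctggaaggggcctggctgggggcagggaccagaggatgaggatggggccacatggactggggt
VPREB3: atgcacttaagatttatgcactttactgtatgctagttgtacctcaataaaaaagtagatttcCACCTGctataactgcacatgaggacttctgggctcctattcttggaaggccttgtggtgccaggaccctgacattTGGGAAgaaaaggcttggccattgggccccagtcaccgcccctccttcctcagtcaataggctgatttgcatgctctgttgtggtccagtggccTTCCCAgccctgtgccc
CD79A: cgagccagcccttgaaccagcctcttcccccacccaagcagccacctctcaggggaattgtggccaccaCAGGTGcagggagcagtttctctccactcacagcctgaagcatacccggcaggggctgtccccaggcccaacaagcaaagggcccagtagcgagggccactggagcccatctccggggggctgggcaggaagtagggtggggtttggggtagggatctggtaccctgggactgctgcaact
BLNK: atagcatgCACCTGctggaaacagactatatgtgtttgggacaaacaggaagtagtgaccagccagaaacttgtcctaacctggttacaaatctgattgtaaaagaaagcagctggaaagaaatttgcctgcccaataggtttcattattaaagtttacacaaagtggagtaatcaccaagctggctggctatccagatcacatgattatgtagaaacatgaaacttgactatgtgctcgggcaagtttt

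A CAGGTG match, on one strand or the other, stood in each of these 5 windows, and 17.5% of the 35116 RefSeq windows of the same length held one. It began 203 bases before the start of VPREB1, 161 bases before that of IGLL1, 187 before VPREB3, 181 before CD79A and 242 before BLNK. Of the 3 windows of SYK 1 held it, and of the 2 windows of BTK 0. The inner EBF1 letters matched in VPREB1 at 29 bases before the start, gave 4 matches in IGLL1, which overlap in pairs, and 1 in BTK. They matched in 17.1% of all windows. The longer EBF1 motif, which adds a T before those letters and an A after them, matched in 0 of these 5 windows and in 1.06% of all windows. The Ikaros letters matched 2 times in VPREB3 and in none of the other printed windows, against 20.8% of all windows. The remaining 3 of the 7 motifs searched were GAGGAA for PU.1 (1 match each in VPREB1 and VPREB3, 23.6% of all windows), TTCNNNGAA for BCL6 and STAT factors (1 match in VPREB3, 6.57%) and TGTTTAC for FOXO factors (0 in these 5 windows, 2.98%). Outside the printed windows, GAGGAA matched 2 times in 1 window of BTK, and 2 times and 1 time in 2 windows of SYK. The Ikaros letters matched 1 time in 1 window of SYK. CAGGTG was thus present in the windows of CD79A and IGLL1, which were not called for STI571. It was present as well in those of VPREB1, VPREB3 and BLNK, which were called. SYK, with the match in 1 of its 3 windows, was not called. For CD79B, which was called, no window was given.

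Values are the deposited signal intensities, and changes are differences of log2(signal + 24.5), where 24.5 is the 25th percentile of all signals; this scale understates changes of dim genes. Median signals were 106.6 and 115 in treated and untreated SUP-B15 and 107.6 and 95.5 in treated and untreated BV-173. Of the 14 probe sets 13 reached their array's median in at least 1 array, and all 10 genes kept 1. BLK passed by its signal in treated SUP-B15 alone and SYK by its signals in SUP-B15 alone. Of the B precursor markers, 4 of 6 lay above the array's median in all arrays, and their summed signal was 75658 and 58554 in treated and untreated SUP-B15 and 32209 and 10488 in treated and untreated BV-173. In BV-173, CD34 (103.9 treated, 11.8 untreated) and MME, which encodes CD10 (81.4 treated, 31.3 untreated), stayed below their array's median. T cell markers lay below the median in all arrays (0 of 7, summed signals 230 to 362.5), and myeloid markers passed it in some array for 2 of 7. Of the other lists the median was passed in some array by 3 of 4 plasma cell markers, led by XBP1, by 2 of 4 NK cell markers, led by NKG7, and by 1 of 2 erythroid markers. The 18S ribosomal RNA controls stood higher in treated BV-173 (mean 2817) than in the other arrays (1513 to 1597). Its part in the responses of BV-173 was not tested. With STI571, 4 of the 6 B precursor markers rose in the test described below, against 1.40% of all genes. The part of this in the results on the receptor genes was not tested.

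STI571 was tested as the mean change of both lines with limma, adjusted over 7916 genes. VPREB1, VPREB3, CD79B and BLNK rose and no other of the 10 genes was called, so 4 were called higher and 0 lower. In RNA from whole cultures, more cells with a transcript and more of it per cell cannot be told apart. Among all genes 1.40% were called higher and 1.62% lower, 3.02% in all. The median change of the 10 genes was 0.36 on the log2 scale, against 0.02 for all genes. It was 0.37 in SUP-B15 and 0.34 in BV-173.

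**Figure D1:**
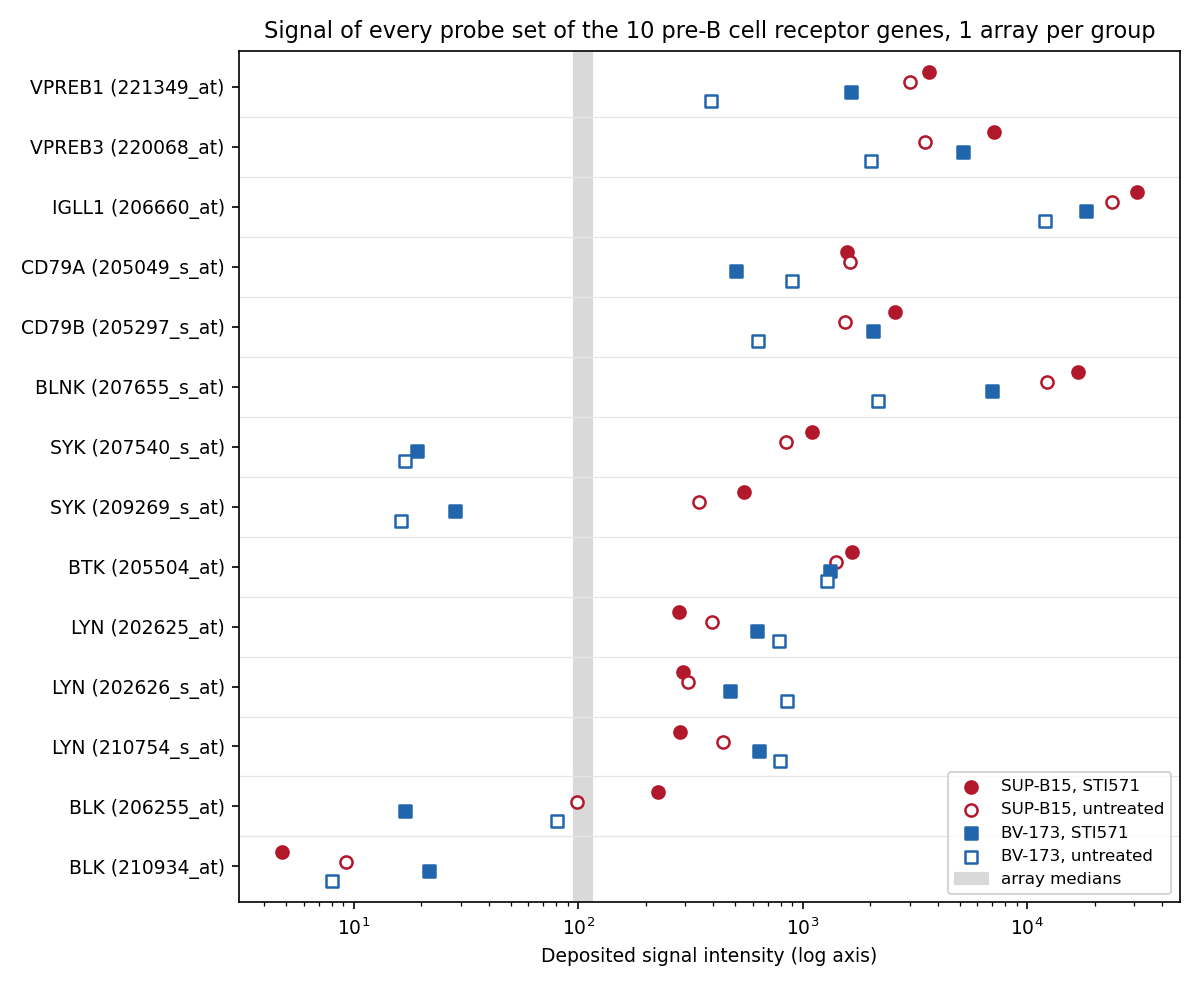
Deposited signal intensity (log axis) of the 14 probe sets of the 10 genes, with 1 point per array. Red circles are SUP-B15 and blue squares BV-173, filled with STI571 and open without; the grey band spans the array medians. SYK lies below the band in both BV-173 arrays and above it in both SUP-B15 arrays, and all 3 LYN probe sets are lower in SUP-B15.

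In the surrogate light chain, VPREB1 rose and IGLL1 was not called. VPREB1, the V-like part of the surrogate light chain, had signals of 3667 in treated and 3010 in untreated SUP-B15, and of 1643 in treated and 391 in untreated BV-173. It was highest in treated SUP-B15, and treated BV-173 stayed below untreated SUP-B15. The log2 change was 0.28 in SUP-B15 and 2.0 in BV-173 (mean 1.14, SE 0.21, limma adjusted p = 1.5e-05). In signal + 24.5, SUP-B15 stood 2.21-fold above BV-173 with STI571 and 7.30-fold above it without, so the treated lines lay closer together than the untreated ones. On the log2(signal + 24.5) scale, 498 of the 7916 genes had responses further apart between the lines than VPREB1.

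IGLL1, the constant-like part, had 30849 in treated and 23839 in untreated SUP-B15, and 18311 in treated and 11962 in untreated BV-173. The order of the 4 arrays was that of VPREB1, with smaller steps. Its log2 changes were 0.37 in SUP-B15 and 0.61 in BV-173 (mean 0.49, SE 0.23, limma adjusted p = 0.332). With quantile normalization this change passed the test (0.53, limma adjusted p = 0.0142).

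VPREB3, a relative of VPREB1 that binds the heavy chain inside the cell, gave the most even rise of the genes called for STI571. Its signals were 7106 in treated and 3520 in untreated SUP-B15, and 5158 in treated and 2009 in untreated BV-173. Both treated arrays were above both untreated ones. The log2 changes were 1.01 and 1.35 (mean 1.18, SE 0.20, limma adjusted p = 2.75e-06). The genes of the surrogate light chain and VPREB3 all lie on chromosome 22.

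The heavy chain itself, IGHM, is measured by 5 probe sets that name it alone. The brightest had 17916 in treated and 11092 in untreated SUP-B15, and 4790 in treated and 3517 in untreated BV-173, higher with STI571 in both lines and higher in SUP-B15. The next brightest probe set ran the same way, while the other 3, with signals of 8.9 to 434.6, were lower in SUP-B15.

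The signalling chains CD79A and CD79B, which work as a pair, did not move together. CD79B had 2567 in treated and 1549 in untreated SUP-B15, and 2048 in treated and 631 in untreated BV-173. Both treated arrays lay above both untreated ones, and the gene rose by log2 changes of 0.72 and 1.66 (mean 1.19, SE 0.21, limma adjusted p = 6.76e-06). CD79A had 1583 in treated and 1633 in untreated SUP-B15, and 502 in treated and 897 in untreated BV-173. Its arrays in SUP-B15 were close, and its lowest value was that of treated BV-173. The log2 changes were −0.04 and −0.81 (mean −0.43, SE 0.22), and the gene was not called (limma adjusted p = 0.441). In BV-173, then, the signal of CD79B was 3.16-fold the untreated value and that of CD79A 0.571-fold, with no replicate of either. The difference between the genes was not tested.

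BLNK, the scaffold that links SYK to BTK, had 16793 in treated and 12281 in untreated SUP-B15, and 6964 in treated and 2169 in untreated BV-173. It was higher with STI571 in both lines, and treated BV-173 stayed below both SUP-B15 arrays. The log2 changes were 0.45 in SUP-B15 and 1.67 in BV-173 (mean 1.06, SE 0.21, limma adjusted p = 7.15e-05).

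The kinases were not called for STI571. BTK, the TEC family kinase that activates phospholipase C-gamma 2, had 1664 in treated and 1408 in untreated SUP-B15, and 1319 in treated and 1279 in untreated BV-173. Its 4 values were the closest together of the 10 genes, with log2 changes of 0.24 and 0.04 (mean 0.14, SE 0.21, limma adjusted p = 0.897). SYK had log2 changes of 0.37 in SUP-B15 and 0.07 in BV-173 (mean 0.22, SE 0.41, limma adjusted p = 0.92).

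LYN, the main SRC family kinase of B cells, was lower with STI571 in each of its 3 probe sets and both lines, without passing the test. Its brightest probe set, which stood for the gene, had 285.5 in treated and 440 in untreated SUP-B15, and 637 in treated and 796 in untreated BV-173. The mean log2 change was −0.45 (SE 0.26, limma adjusted p = 0.544). The other 2 probe sets gave mean changes of −0.39 and −0.44, and when every probe set was fitted on its own their adjusted p-values were 0.658 and 0.599. In SUP-B15 the 3 changes ran between −0.58 and −0.06 and in BV-173 between −0.81 and −0.31, so the probe sets differed on which line changed more.

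BLK, a SRC family kinase found mainly in B lineage cells, was dim. Its brighter probe set had 227 in treated and 98.7 in untreated SUP-B15, and 17.0 in treated and 80.4 in untreated BV-173. The lines moved in opposite directions, by 1.03 and −1.34 on the log2 scale, and their mean was −0.15 (SE 0.66, limma adjusted p = 0.971). The other probe set had 4.8 to 21.7 in all arrays, below the filter, with changes of −0.20 in SUP-B15 and 0.51 in BV-173.

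**Figure D2:**
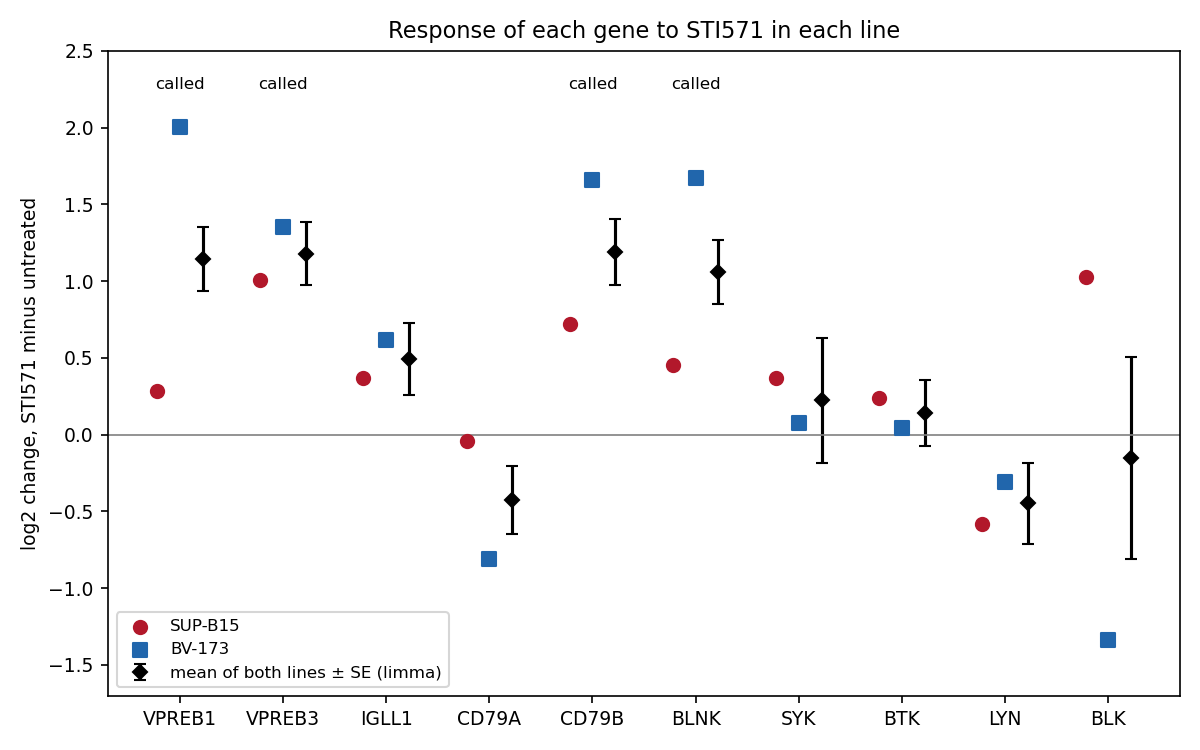
Log2 change with STI571 (STI571 minus untreated, log2(signal + 24.5) scale) of the 10 genes in SUP-B15 (red circles) and BV-173 (blue squares), with the mean of both lines and its limma SE (black diamonds). The 4 genes marked as called have means between 1.06 and 1.19, with the BV-173 value above the SUP-B15 value in each.

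Counted by size alone, with no test, 2 genes were at least 2-fold higher with STI571 in SUP-B15, VPREB3 and BLK, against 4.08% of all genes. BLK passed the filter through treated SUP-B15 alone, which favoured a rise in that line and a higher response there than in BV-173. In BV-173 4 were, the same 4 that the test called, against 6.91% of all genes. At least 2-fold lower with STI571 were 0 in SUP-B15 (5.68% of all genes) and 1, BLK, in BV-173 (4.60%). The response of BV-173 was above that of SUP-B15 in VPREB1, VPREB3, IGLL1, CD79B and BLNK, and, as the smaller decrease, in LYN. With a common median IGLL1 turned round (SUP-B15 minus BV-173 of 0.04), and VPREB3 was −0.06. For VPREB1 and BLNK the responses were at least 2-fold apart, by 1.72 and 1.22 on the log2 scale, as they were in that direction for 10.9% of all genes. In the other direction they were so for BLK, 1 gene of the 10, and for 6.46% of all genes. With a common median BLNK was −0.94, under 2-fold, and CD79A was 1.04, past it. The limma calls rest on a spread taken from the trend of all genes with brightness, because the fit has 1 residual degree of freedom. Without that trend 0 of the 7916 genes were called for STI571 by limma (658 at an unadjusted p under 0.05), and the adjusted p-values of the 4 called genes were 0.555 to 0.627, and with no replicate block for cell line they were 0.9999.

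**Figure D3:**
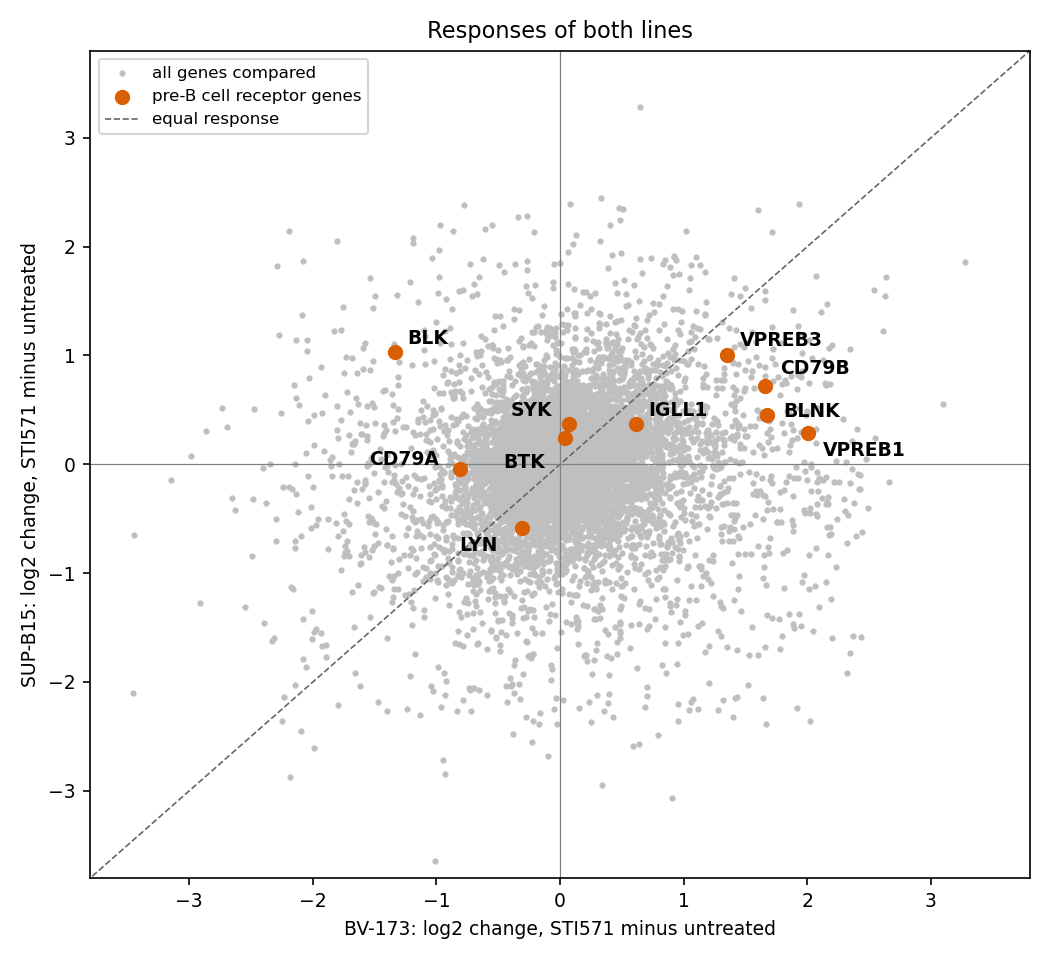
Log2 change with STI571 in BV-173 (x axis) and SUP-B15 (y axis) for the genes compared (grey), with the 10 receptor genes in orange; 1 gene lies outside the axes. VPREB1, BLNK, CD79B and VPREB3 lie to the right, below the dashed line of equal response, and BLK lies alone in the upper left.

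The lines differed more than the treatment did. The same fit compared SUP-B15 with BV-173 over both treatments, with arrays of 1 line as its only replicates. Of the 10 genes 7 were called higher in SUP-B15 and 1, LYN, lower. The filter fixed the direction of SYK, and the other 6 called higher reached their array median in both lines. Among all genes 14.4% were called in each direction, 28.7% in all. The median difference of the 10 genes was 1.05, against −0.04 for all genes. That median includes SYK and BLK, which passed the filter through SUP-B15 alone, so the filter fixed or favoured their direction.

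SYK, the kinase that carries the receptor's signal forward, showed the largest difference of the 10. Its brighter probe set had 1095 and 841 in treated and untreated SUP-B15, against 19.1 and 16.9 in treated and untreated BV-173. The second probe set had 546.5 and 345 in SUP-B15 against 28.4 and 16.2 in BV-173. In BV-173 the brighter probe set lay below the 25th percentile of its array, with and without STI571. Since SYK passed the filter through SUP-B15 alone, its direction was fixed and the difference is given as a description, with no test. The log2 difference was 4.53. The BV-173 signals lie under the added 24.5, so its size depends on that value. With 1 added in place of 24.5 it was 5.66, and with 98 added it was 3.19, and the second probe set gave 3.31.

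VPREB1 and BLNK followed, 4.02-fold and 3.67-fold higher in SUP-B15 on average over both treatments (log2 differences 2.01 and 1.88, limma adjusted p = 1.71e-19 and 1.85e-17). CD79A was 2.34-fold higher (limma adjusted p = 6.64e-07), and by treatment it was 3.05-fold higher with STI571 and 1.80-fold higher without. IGLL1 was 1.83-fold, CD79B 1.73-fold and VPREB3 1.55-fold higher (limma adjusted p = 0.00107, 0.00128 and 0.00936). For CD79B the groups overlapped, since treated BV-173 (2048) stood above untreated SUP-B15 (1549), and the same held for VPREB3 (5158 and 3520). LYN was lower in SUP-B15, by a log2 difference of −0.96 (SE 0.26, limma adjusted p = 0.00169). The other LYN probe sets gave −1.01 and −1.03, and in each of the 3 both SUP-B15 arrays lay below both BV-173 arrays. The share of all genes whose arrays part by line in this way was not counted. BTK (0.23, limma adjusted p = 0.458) and BLK (1.42, limma adjusted p = 0.0927) were not called. BLK passed the filter through treated SUP-B15 alone, which favoured the direction of its difference.

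Without the intensity trend 0 of the 7 calls other than SYK, LYN included, remained (limma adjusted p = 0.0605 to 0.202). The differences of CD79B and VPREB3 were also lost with a common median (limma adjusted p = 0.0553 and 0.0983) and without the treatment term (0.239 and 0.313).

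Kinases of the same families also differed between the lines. SRC, SYK and TEC family genes other than the 4 kinases above were listed, 12 in all, of which 5 were measured. Of these, 4 were called between the lines, against 28.7% of all genes. Of the 4, 3 reached the array median in 1 line only, so that their direction was fixed by the filter. These 3 are described with no test. FYN, a SRC family kinase, had 4544 and 3280 in treated and untreated SUP-B15 against 71.4 and 47.3 in treated and untreated BV-173 (log2 difference 5.55, and 4.66 with 98 added). LCK, the SRC family kinase of T cells, had 284 and 361 in SUP-B15 against 43.4 and 21.1 in BV-173 (2.63, and 3.36 with 1 or 1.69 with 98 added). Both passed the filter through SUP-B15 alone, like SYK.

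YES1, also of the SRC family, passed it through BV-173 alone, with 1.2 and 2.2 in treated and untreated SUP-B15 against 393.5 and 359 in BV-173 (−3.93, and −4.66 with 1 or −2.25 with 98 added). ZAP70, the relative of SYK that serves the T cell receptor, had 234 and 124 in treated and untreated SUP-B15 against 363 and 362 in BV-173 (−0.98, limma adjusted p = 0.0174, 0.0724 with no filter and 0.129 without the intensity trend). BV-173, the line with the low SYK signals, was thus the line with the higher ZAP70 signals. TEC was not called for the lines (−0.42, limma adjusted p = 0.748). For STI571 0 of the 5 kinases were called, against 3.02% of all genes. TEC, which passed the filter by its signal in treated SUP-B15 alone, had 131.9 treated and 9.6 untreated in SUP-B15 and 87.9 treated and 60.6 untreated in BV-173 (log2 changes 2.20 and 0.40). Its mean was 2.09 with 1 and 0.66 with 98 added. FYN, ZAP70 and LCK had means of 0.44, 0.40 and 0.13.

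**Figure D4:**
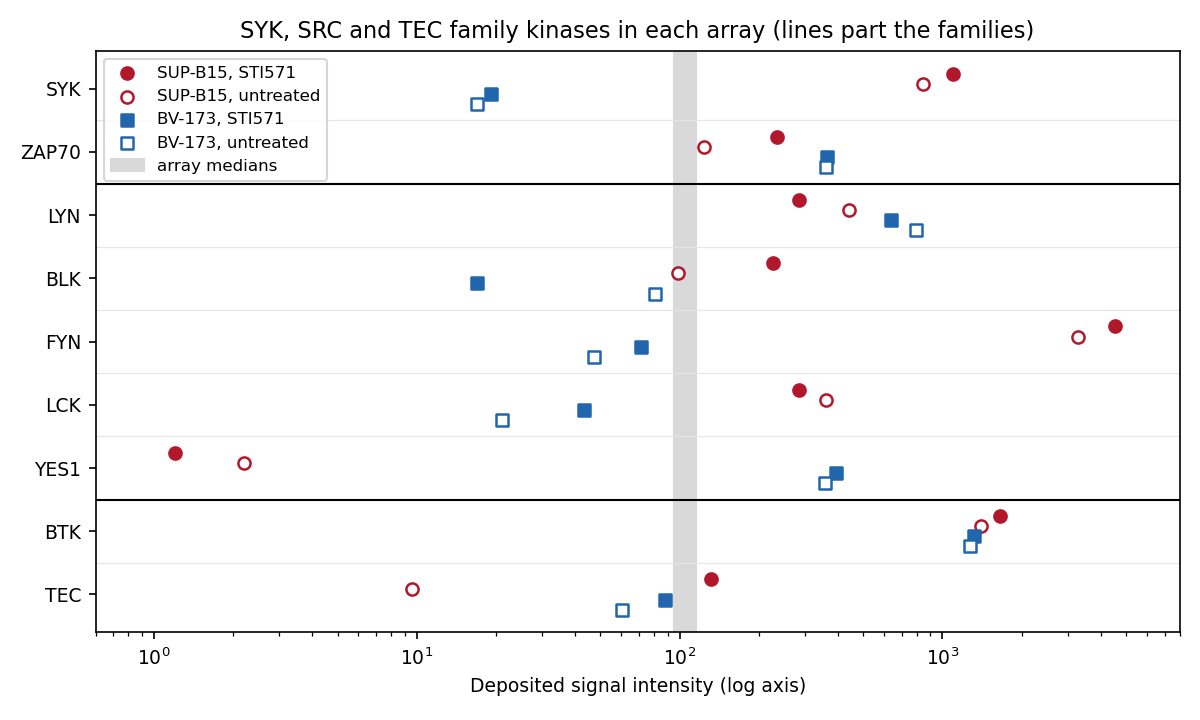
Deposited signal intensity (log axis) of the SYK family (SYK, ZAP70), the SRC family (LYN, BLK, FYN, LCK, YES1) and the TEC family (BTK, TEC) in each array, with symbols and grey band of array medians as in the plot of receptor genes. SYK, FYN and LCK lie higher in SUP-B15, and ZAP70, LYN and YES1 higher in BV-173.

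Genes further along the pathway were counted from lists. Of 29 measured effectors, 2 rose and 3 fell with STI571, against 1.40% and 1.62% of all genes. Their median change was −0.10, against 0.02 for all genes. PIK3CD and PIK3R1, the catalytic and regulatory subunits of phosphoinositide 3-kinase, rose, by mean log2 changes of 0.77 and 0.88 (limma adjusted p = 0.00953 and 0.00496). PIK3R1 had 2021 treated and 1177 untreated in SUP-B15 and 1059 treated and 517 untreated in BV-173, higher with STI571 in both lines. Both calls ended with a common median (0.0506 for PIK3CD and 0.106 for PIK3R1), and that of PIK3CD with the mean of its probe sets (0.328).

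RAC2, a small GTPase of blood cells, fell by a mean of 1.40 (limma adjusted p = 2.41e-08), with 565 treated and 2427 untreated in SUP-B15 and 1649 treated and 2769 untreated in BV-173. LCP2, which encodes SLP-76, the relative of BLNK in T cells, fell by 1.34 (limma adjusted p = 0.00437), with 194.5 treated and 469 untreated in SUP-B15 and 125.7 treated and 401 untreated in BV-173. LCP2 thus moved against BLNK in both lines. BANK1, an adaptor of B cells, fell by 1.39 (limma adjusted p = 1.32e-05), with changes of −2.68 in SUP-B15 and −0.09 in BV-173, and lost its call with the mean of probe sets (0.0864).

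Between the lines, where 14.4% of all genes were called in each direction, 9 effectors were called higher in SUP-B15 and 5 lower. Of these 14, 3 (PRKCB, ITPR2 and ITPR3) reached the array median in 1 line only, which fixed their direction. Without the intensity trend 6 of the 14 stayed called. These were the 3 with the fixed direction, and ITPR1, BANK1 and NFATC1. The call of NFATC1 was lost with the mean of probe sets and with gene-specific probe sets. PRKCB, the protein kinase C isoform downstream of BTK, had 3366 and 4552 in treated and untreated SUP-B15 against 21.5 and 58.0 in treated and untreated BV-173 (log2 difference 6.0, and 6.75 with 1 or 4.88 with 98 added). ITPR1, a calcium channel opened by the product of phospholipase C, had 1552 and 1471 against 175.4 and 317 in the same order (2.55, limma adjusted p = 1.81e-22). PLCG2, the phospholipase itself, was lower in SUP-B15 (−0.80, limma adjusted p = 0.000711, and 0.127 without the trend), with 1870 and 1514 against 3478 and 2506. BANK1 had 35.6 and 361 in treated and untreated SUP-B15 against 2179 and 2328 in treated and untreated BV-173 (−3.90, limma adjusted p = 8.84e-50).

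Among brakes of the receptor, 1 of 13 measured genes fell with STI571 and 0 rose, against 1.62% and 1.40% of all genes. Their median change was −0.02, against 0.02 for all genes. PTPN6, which encodes the phosphatase SHP-1, fell by 0.95 (limma adjusted p = 0.00414), with 893 treated and 1414 untreated in SUP-B15 and 347 treated and 859 untreated in BV-173. The ubiquitin ligase CBLB and the surface receptors CD22 and CD5 had mean changes of 0.71, −0.40 and 0.39 without passing (limma adjusted p = 0.223, 0.56 and 0.949). CD5 reached its array's median in treated BV-173 alone (112.1), so the filter favoured its rise. CD72, an inhibitory receptor, had 1024 and 814 in treated and untreated SUP-B15 against 11.2 and 48.3 in BV-173. It passed the filter through SUP-B15 alone, and its log2 difference was 4.20, or 5.22 with 1 and 3.0 with 98 added. PTPN6 was also called higher in SUP-B15 (1.0) and CD22 lower (−0.92). Both calls were lost without the intensity trend (limma adjusted p = 0.108 and 0.158) and without the treatment term (0.0884 and 0.0554).

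Of the co-receptor genes 3 were measured. Against 1.40% of all genes, 1 of the 3 rose with STI571, CD81, a tetraspanin of the cell surface. Its signals were 6215 treated and 2637 untreated in SUP-B15 and 7571 treated and 3905 untreated in BV-173 (mean 1.09, limma adjusted p = 2.06e-05). IFITM1 and MS4A1 had mean changes of −0.51 and −0.41 (limma adjusted p = 0.204 and 0.902). MS4A1 reached its array's median in untreated SUP-B15 alone (208.9), so the filter favoured its fall. Between the lines IFITM1 was called higher in SUP-B15 (0.89, limma adjusted p = 0.000118, and 0.105 without the intensity trend).

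Of 13 measured transcription factors known to act on the surrogate light chain and CD79 genes or in early B cells, 4 rose and 0 fell. Of all genes 1.40% rose and 1.62% fell. The median change of the 13 was 0.55, against 0.02 for all genes. TCF3 had 9663 treated and 6128 untreated in SUP-B15 and 11259 treated and 6597 untreated in BV-173 (mean 0.71, limma adjusted p = 0.0286). Its relative TCF12 had a mean of 0.77 and the progenitor factor SOX4 0.73 (limma adjusted p = 0.00993 and 0.0289), and IKZF1, which encodes Ikaros, 0.89 (limma adjusted p = 0.00286). These calls depended on the processing. That of TCF3 ended with no filter (0.0716), gene-specific probe sets (0.847) and the mean of probe sets (0.298). That of SOX4 ended with no filter (0.0956) and that of TCF12 with a common median (0.0728). That of IKZF1 ended with a common median (0.0833), gene-specific probe sets (0.391) and the mean of probe sets (0.439). ETS1 and IRF8 had means of 1.19 and −0.85 without passing (limma adjusted p = 0.661 and 0.153). ETS1 reached its array's median in treated BV-173 alone (136.3), so the filter favoured its rise. Between the lines, where 14.4% of all genes were called in each direction, 8 were called higher in SUP-B15 and 0 lower. They were led by IRF8 (log2 difference 3.19), TCF12 (2.27) and IKZF1 (1.45), while TCF3 was not called (−0.16). Without the intensity trend 2 of the 8, IRF8 and TCF12, stayed called, and IKZF1, SOX4, TCF4, LEF1, PAX5 and FOXO1 were not (limma adjusted p = 0.0737 to 0.188).

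The genes with the most similar profiles were found by the Euclidean distance of log2 values over the 4 arrays, each gene centred on its own mean. Nearest to VPREB1 were DNTT (distance 0.243), CD24 (0.277) and BLNK (0.294), and nearest to BLNK were DNTT (0.0874), HOXC6 (0.250) and ZNF571 (0.277). DNTT, the polymerase that adds bases in V(D)J joining, had 29317 and 22251 in treated and untreated SUP-B15 and 11815 and 3646 in treated and untreated BV-173, the same order as VPREB1 and BLNK. CD79B was closest to ARHGEF18 (0.0732), BTBD7 (0.0924) and RNFT1 (0.154), and IGLL1 to RPS6KC1 (0.0713), LEF1 (0.0807) and UGDH (0.0829). BTBD7, RNFT1, HOXC6 and ZNF571 were dim and passed the filter through SUP-B15 alone. Their untreated BV-173 signals (7.1, 14.7, 4.5 and 9.3) lay under the added 24.5, so their distances depend on that value. With 4 arrays and 7916 genes such distances describe these arrays only.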

How the data were processed

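RNA was measured in 4 samples, 1 array per group. Per the labels' protocols, RNA was extracted with a Qiagen kit and labelled with biotin by standard Affymetrix methods, and the submitters' processing notes name GCOS 1.3. The deposited values are linear signal intensity per probe set, scaled by the authors to equal 2%-trimmed means; probe summary, scaling target and detection calls are not stated in the labels (not given in the sources used here), and the number of arrays limits precision.

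Probe sets with 1 symbol in the platform annotation (19064 of 22277, 62 being controls) entered if any array had them at or above its 50th percentile, and each gene took its brightest one, leaving 7916 of 11963 genes. limma 3.58.1 (R 4.3.3) was fitted to log2(signal + 24.5) with cell line and treatment as terms, an intensity trend, two-sided tests and Benjamini-Hochberg adjustment at 0.05. Cell line pairs the arrays, as the labels give it. The fit was tested on simulated data. Prior degrees of freedom were infinite, so SEs follow brightness, not a gene's own spread. Single-line responses have no test. Gene members matched RefSeq (GRCh38.p14) by Entrez ID, 10 of 10. The genes, lists and tests were chosen with earlier results of these data known; from each list, called genes and the 4 largest mean changes could be named. Alternatives covered normalization, pseudocount, filter, probe set choice, trend, prior and model terms.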

Additional observations from a re-analysis of the deposited data

Results flagged for a closer look

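BLK was the 1 gene of the 10 whose signal moved in opposite directions in the lines. With STI571 its log2 change was 1.03 in SUP-B15 and −1.34 in BV-173, a difference of 2.37 that was not tested, since each line has 1 array per treatment. Its signal in treated BV-173 (17.0) lies under the added 24.5, so the size depends on that value: the difference was 3.37 with 1 added and 1.36 with 98 added. All of its signals except that of treated SUP-B15 lay below their array's median, so the filter favoured a rise in that line. The second probe set of BLK gave changes of the opposite signs.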

How the results depend on the processing

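Of 115 alternative values of the 10 genes' STI571 effect, 105 kept direction and side of the threshold, as did 104 of 115 of their line differences. A call was lost in 8 and 11. The 8 were all of VPREB1, VPREB3, CD79B and BLNK, and the 105 include the 6 genes that were not called. The robust prior gave the main counts again (239 and 2273 genes called). Genes with 1 probe set kept the same log2 values under the probe set choices. The BLK effect reversed with a pseudocount of 98 (0.0455). Among other pathway genes, STI571 effects that were not called reversed for NFATC1 with a common median (−0.0221), the mean of probe sets (−0.133) and gene-specific probe sets (−0.141), for YES1 with those 3 settings (−0.0417, −0.401 and −0.837) and a pseudocount of 1 (−2.19), for LCK with a pseudocount of 98 (−0.009) and the mean of probe sets (−0.345), and for VAV3 with the mean of probe sets (0.0284); the cause was not tested. All genes called for STI571 numbered 239, and 153 with a common median, 116 with the mean of probe sets, 137 with gene-specific probe sets (4865 genes tested), and 0 without the intensity trend (658 at an unadjusted p under 0.05) and with no replicate block for the cell line (70). Among the 10 genes, 4 were called higher, and 2 with gene-specific probe sets (6 measured) and 0 without the trend or the block. Line differences numbered 2273, and 1340 with gene-specific probe sets, 629 without the trend and 1460 without the treatment term. Of the 10 genes, 7 were called higher in SUP-B15, and 3 with gene-specific probe sets and 1 (SYK, whose direction the filter fixed) without the trend, where 0 were lower. At least 2-fold higher in SUP-B15 were 2 genes, and 1 with quantile normalization and 0 with a pseudocount of 98; in BV-173 4, and 2 with gene-specific probe sets. A common median shifted the median response of all genes to 0.08 in SUP-B15 and −0.11 in BV-173, and the line difference to −0.15. Dim signals limit SYK in BV-173, and BLK.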
